A study of Rattus norvegicus with 16 samples.

Results

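Ribosome biogenesis factors are the nucleolar proteins that transcribe ribosomal RNA, modify it, cut it and fold it into the small (40S) and large (60S) ribosomal subunits. A list of 34 such genes was followed through input RNA, ac4C peaks and NAT10-bound RNA of rat aortic smooth muscle cells. The rule names the genes and uses no measured value, but the list was drawn up with earlier results of these data known. Of the 34, 33 were found among the 32883 genes of the expression table, and 32 were among the 13450 genes that passed the level filter. Heatr1 was not found by name or synonym, and Nhp2 was found but not tested.

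The cells were wild-type primary vascular smooth muscle cells of rat aorta, grown in 20% fetal bovine serum. Either a control adenovirus (Ad-shRNA-con) or one that encodes a Nat10 hairpin (Ad-shRNA-NAT10) was present for 48 hours. All 6 input cultures therefore carried a virus, and none was left without one. The input set has 3 control and 3 knockdown libraries. N4-acetylcytidine (ac4C), an acetylated form of cytidine, was pulled down with an antibody from RNA cut to 100 to 200 nt, again in 3 control and 3 knockdown libraries. RNA bound to NAT10 protein was pulled down in 3 further libraries (NAT10 RIP), for which the labels name no virus comparison. The replicates are described as biological repeats without naming animals, and the p-values below therefore rest on library-to-library spread that may be technical.

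Ribosome assembly starts when RNA polymerase I copies the ribosomal DNA in the nucleolus. Small nucleolar ribonucleoproteins (snoRNPs) then guide methylation (box C/D type) and pseudouridylation (box H/ACA type) of the transcript, and large assemblies cut and fold it. NAT10 itself belongs to this pathway: it acetylates the RNA of the small subunit and takes part in its assembly. Proliferating cells, cultured smooth muscle cells among them, make many ribosomes, and many genes of the pathway are known targets of the transcription factor MYC.

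MYC and related factors bind the E-box CACGTG, so the promoter sequences of the genes were searched for it. RefSeq promoters of build GRCr8, running from 250 bases before to 50 bases after the gene start, were held for 31 of the 34 genes. The names without an entry were Rrs1, Bop1 and Wdr43. CACGTG, which reads the same on both strands, occurred in 11 of the 31 promoters (35.5%). It occurred in 6.42% of all 33469 promoters of the table and in 9.66% of the 8820 promoters of genes tested in the input RNA. The median GC content was 59.3% for the 31 promoters, 51.7% for the whole table and 61.3% for the tested genes. The matches are shown here because they are a sequence feature that 11 of the promoters share, each 5′ to 3′ on the gene's strand with the motif in capitals and up to 12 bases on each side.
Bysl: tagccggcttcaCACGTGtaaactttgtgg
Dkc1: agcgtcccggcgCACGTGcgggccccaccc
Fbl: ggcgcttttttcCACGTGtgaaagcctgag
Gnl3: agttccagttcgCACGTGgcgcccgagacg
Mybbp1a, upstream: gcagtttctacaCACGTGtgcgagcacagg
Mybbp1a, at the start: gtctttcgagccCACGTGtttggttcagca
Nop2: cttccccaagtgCACGTGgagcgg
Pes1: ccctaagcggggCACGTGcggtaggaagta
Rrp12: gctgagaatacaCACGTGggttctgctgtg
Tsr1: gtttactcggtgCACGTGggcagttagaat
Utp20: cagcactagctaCACGTGagaaaaagcaga
Utp4: tgcgcacgcgcgCACGTGggaccggggcgg

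The stretches of Dkc1 (chrX:157751455-157751484, plus strand), Gnl3 (chr16:6219790-6219819, minus strand), Pes1 (chr14:83074284-83074313, plus strand), Utp20 (chr7:25102959-25102988, minus strand) and Utp4 (chr19:51702204-51702233, plus strand) carry the motif before the gene start. Its first base lies 184 bases before the start in Dkc1, 127 in Utp20, 50 in Pes1 and 25 in both Gnl3 and Utp4. After the start it was found in Bysl (chr9:20880361-20880390, plus strand), Fbl (chr1:92597416-92597445, plus strand), Nop2 (chr4:159618992-159619015, plus strand), Rrp12 (chr1:250655298-250655327, minus strand) and Tsr1 (chr10:60258798-60258827, plus strand). There it begins 3 bases after the start in Rrp12, 20 in Tsr1, 21 in Fbl, 32 in Bysl and 38 in Nop2. Mybbp1a holds the motif at chr10:57555290-57555319 and again at chr10:57555445-57555474, both on the plus strand, 156 bases and 1 base before the start. A match gives letters in a window and is not a measured binding site.

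The input libraries held 6417941 to 12065991 fragments, and tested members had between 45 and 4410 fragments in a library. Nat10, the target of the hairpin, stood at 7.69, 9.22 and 9.95 FPKM in the control set and at 4.38, 3.68 and 4.58 FPKM in knockdown libraries (log2 change -0.93, adjusted p = 0.227 in limma). FPKM is a fragment count divided by gene length and library size, as scaled by the authors, so levels of different genes can be compared per length. Over all 13450 genes, limma called 0 at an adjusted p under 0.05. Without adjustment, 744 genes were on the higher side at p under 0.05 and 935 on the lower side. Knockdown library 2 stood apart on the first principal component (-70.0, against -10.3 to 30.9 for the other 5), which held 40.8% of the variance. The 10 smooth muscle markers summed to 5207 to 6851 FPKM in controls and to 1715, 875 and 3841 FPKM in knockdown libraries 1 to 3. Endothelial markers summed to at most 0.973 FPKM with Emcn at 0. Leukocyte markers, with Cd3e and Cd79b at 0, summed to 3.54 to 5.36 FPKM in controls and to 8.64, 11.1 and 5.03 FPKM in knockdown libraries 1 to 3. Of these 6 markers, 5 had a mean below 1 FPKM, and Cd68 was the highest. Adventitial fibroblast markers summed to 260 to 279 FPKM in controls and to 223, 185 and 246 FPKM in the knockdown set. The part of these differences in the results was not tested. In bulk RNA, fewer cells of a type and less RNA per cell cannot be told apart.

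After Nat10 knockdown the factors stood, on balance, slightly higher, but no single gene passed the test and 1 knockdown library ran against the other two. Of the 32 tested genes, 26 had a positive log2 change (81.3%), against 48.6% of all genes tested. Their median log2 change, knockdown minus control on log2(FPKM + 1), was 0.24, against -0.01 for all genes. With 1 library left out, the count of 26 was 20 without knockdown library 1 and 22 without control library 1 or knockdown library 3. It was 28 without control library 2 or 3 and 29 without knockdown library 2. With the libraries rescaled to equal total fragments, 30 of the 32 were positive (Nop56, Dkc1, Rrs1 and Nip7 turned). The medians were then 0.37 for the factors and 0.12 for all genes. The share of all genes that were positive after that rescaling was not computed. By limma, 0 of the 32 were called at an adjusted p under 0.05 (background 0%), and the smallest adjusted p was 0.347. Of the 32, 3 had an unadjusted p under 0.05 and were higher (background 5.53%) and 0 were lower (background 6.95%). That count of 3 depended on single libraries: it was 18 when knockdown library 2 was left out, 0 when control library 2 was, 2 when knockdown library 3 was, and 1 when control library 1, control library 3 or knockdown library 1 was. Over all genes the count of 1679 was 2143 without knockdown library 2 and 833 without control library 2. Among the members it was also 10 with library quality weights, 9 after rescaling to total fragments, 14 without control library 1 and knockdown library 2, 1 with the replicate block and 0 with control libraries 2 and 3 averaged. The libraries of the groups did not overlap for 4 higher genes of the 32 (background 9.63%), a share near the background. On the lower side they did not overlap for 1 of the 32 (background 10.9%), a share below that background.

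The library pattern was plainer than the group difference. The median deviation of the 32 genes from the control mean was -0.16, 0.07 and 0.11 on the log2 scale in control libraries 1 to 3. It was 0.42, -0.29 and 0.57 in knockdown libraries 1 to 3. In FPKM as scaled by the authors, knockdown libraries 1 and 3 thus stood above the controls and knockdown library 2 below them.
In 22 of the 32 genes, libraries 1 and 3 of the knockdown both lay above every control, against 17.7% of all genes tested. Knockdown library 2 was the lowest of its group in 28 genes (background 38.6%) and lay below every control in 18 (background 37.7%). The 4 genes in which it was not lowest were Nop14, Polr1c, Nop10 and Gnl3. These counts by library describe the pattern above in the same values and are not separate evidence for it.
Summed over the members, FPKM came to 989, 1135 and 1193 in the controls and to 1452, 950 and 1503 in the knockdown libraries. As a share of all fragments, the members held 0.222%, 0.261% and 0.276% in controls and 0.411%, 0.254% and 0.348% in knockdown libraries 1 to 3. On that scale knockdown library 2 lay within the control range and control library 1 was the lowest, so its low place depends on the scaling. Library 2 of the knockdown, with the lowest FPKM sum of the 6, also had the lowest summed smooth muscle markers. Its share of fragments in protein-coding genes was the lowest too (94.6%, against 96.2% to 97.6% elsewhere). The part of these in the members' values was not tested.
Without knockdown library 2 the median log2 change of the members was 0.48. Without knockdown library 1 it was 0.15, without knockdown library 3 it was 0.12, and without control library 1 it was 0.14. It was 0.43 with both control library 1 and knockdown library 2 left out. The plot of deviations by library shows the same pattern gene by gene.

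**Figure D1:**
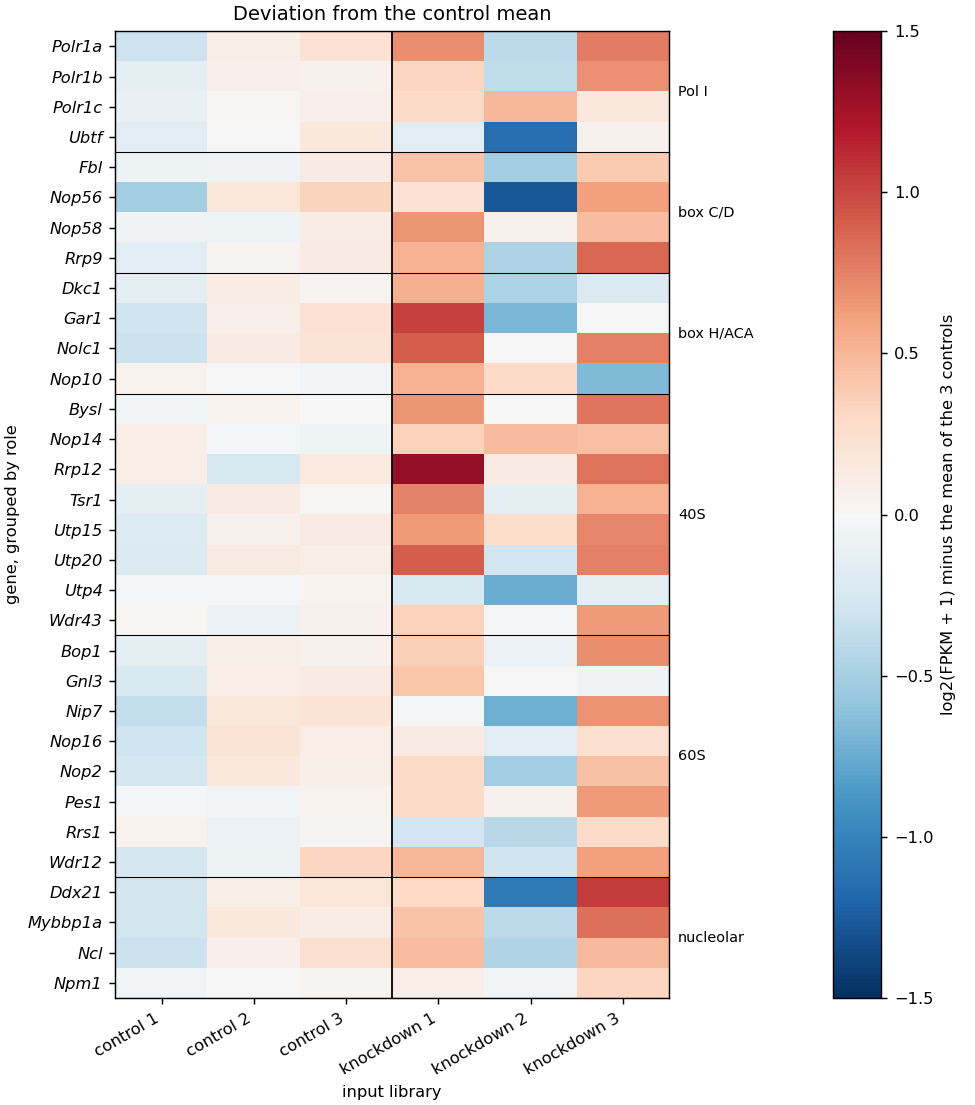
Each row is 1 of the 32 tested genes, grouped by role, and each column 1 of the 6 input libraries. Colour gives log2(FPKM + 1) minus the mean of the 3 controls, red above and blue below. Knockdown libraries 1 and 3 are mostly red and knockdown library 2 mostly blue, with medians of 0.42, 0.57 and -0.29.

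The genes of RNA polymerase I were lowly to moderately expressed, and 3 of the 4 had a positive change (median 0.26). Polr1c, a subunit shared with RNA polymerase III, was measured at 13.7, 15.3 and 15.9 FPKM (controls) and 18.5, 21.4 and 16.8 FPKM (knockdown). All 3 knockdown libraries lay above the controls, and knockdown library 2 was the highest of the 6 (log2 change 0.31, SE 0.16, adjusted p = 0.481). Polr1a and Polr1b form the catalytic core of the enzyme. Polr1a gave 5.95, 8.19 and 9.0 FPKM with the control virus and 13.0, 5.58 and 13.7 FPKM with the Nat10 hairpin. Polr1b, the lowest of the tested factors, stood at 4.16, 4.97 and 4.94 FPKM and at 3.35 FPKM in knockdown library 2, against 6.10 and 8.10 FPKM in knockdown libraries 1 and 3. In both, knockdown library 2 was the lowest of all 6 and the groups overlapped.
Ubtf, which keeps ribosomal DNA open for the polymerase, went the other way. It had 21.7, 24.5 and 27.2 FPKM in the control set, against 21.7, 10.5 and 25.6 FPKM after knockdown (log2 change -0.41, SE 0.32, adjusted p = 0.631). Its low mean came from knockdown library 2, and the other knockdown libraries lay within or at the edge of the control range.

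Box C/D snoRNP proteins methylate ribosomal RNA, and 3 of 4 had a positive change (median 0.20). Nop58, a scaffold protein of the particle and the third most abundant of all the factors, was measured at 68.8, 67.8 and 77.3 FPKM (controls) and 113, 74.7 and 98.6 FPKM (knockdown) (log2 change 0.40, SE 0.20, adjusted p = 0.460). Knockdown library 2 fell within the control range, and the other 2 knockdown libraries lay above it. Nop56, the partner scaffold of Nop58, gave 24.9, 40.6 and 45.2 FPKM with the control virus and 41.8, 14.2 and 55.3 FPKM with the Nat10 hairpin. It was lowest in control library 1 and knockdown library 2 of each group, and its means of 36.9 and 37.1 FPKM hid that spread (log2 change -0.15, SE 0.49). Fbl, the methyltransferase, had 27.7, 28.2 and 32.1 FPKM in the control set, against 39.6, 20.1 and 38.8 FPKM after knockdown, so that the knockdown libraries lay on both sides of the controls. Rrp9, a protein of the U3 particle, had means of 18.9 and 25.3 FPKM (log2 change 0.31, SE 0.33).

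Among the box H/ACA proteins, which pseudouridylate ribosomal RNA, Dkc1 is the enzyme and Gar1, Nop10 and Nhp2 are its partners. Dkc1 was measured at 49.7, 59.3 and 56.4 FPKM (controls) and 79.9, 39.2 and 47.4 FPKM (knockdown). Only knockdown library 1 lay above the controls and the other two lay below them, with a log2 change of -0.05 (SE 0.27). Gar1 gave 6.60, 8.83 and 9.85 FPKM with the control virus and 18.0, 4.81 and 8.26 FPKM with the Nat10 hairpin, again high in knockdown library 1 alone. Nop10 had means of 23.5 and 25.9 FPKM, with knockdown library 3 the lowest of the 6 at 14.5 FPKM.
Nhp2 was listed at 0, 0 and 0.362 FPKM in the control set, then 0, 0 and 0.218 FPKM after knockdown, which is 0 to 2 fragments a library. No fold change is given for it.
Nolc1, a chaperone of both classes of snoRNP, had 38.7, 53.0 and 56.0 FPKM in the control set, against 92.0, 49.0 and 82.5 FPKM after knockdown. Knockdown libraries 1 and 3 lay well above the controls and library 2 within them (log2 change 0.56, SE 0.28, adjusted p = 0.461).

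The small subunit factors had the highest median of the roles, 0.44, and 7 of 8 were positive. With all 6 libraries, the 3 members with an unadjusted p under 0.05 were of this role, a count that changed with the libraries used. Nop14, a core protein of the processome that cuts the small subunit RNA, was measured at 20.4, 18.5 and 18.1 FPKM (controls) and 24.5, 26.9 and 26.3 FPKM (knockdown). The knockdown libraries agreed closely and lay above every control, with a log2 change of 0.43 (SE 0.15, adjusted p = 0.347 in limma). Utp15, of the subcomplex that loads first on the transcript, gave 11.6, 14.2 and 14.9 FPKM with the control virus and 21.6, 16.4 and 23.1 FPKM with the Nat10 hairpin. The groups did not overlap, although knockdown library 2 came near the controls (log2 change 0.55, SE 0.19, adjusted p = 0.353 in limma).
Rrp12, which takes part in the export of the small subunit, had the largest change of the 32 genes. It had 8.18, 6.23 and 8.45 FPKM in the control set, against 20.4, 8.30 and 14.1 FPKM after knockdown (log2 change 0.75, SE 0.31, adjusted p = 0.397 in limma). Knockdown library 2 lay within the control range. Over 16 alternative fits the adjusted p ran from 0.0788 to 0.812 for Nop14, from 0.0755 to 0.811 for Utp15 and from 0.0634 to 0.831 for Rrp12.

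Utp4, of the same early subcomplex as Utp15, was the one factor whose knockdown libraries all lay below the controls. It was measured at 26.9, 27.2 and 28.6 FPKM (controls) and 23.4, 16.1 and 25.0 FPKM (knockdown) (log2 change -0.37, SE 0.20, adjusted p = 0.488). Wdr43, a further protein of that subcomplex, had means of 21.6 and 27.6 FPKM (log2 change 0.32, SE 0.20). Utp20, a very large processome protein, gave 6.08, 8.06 and 7.78 FPKM with the control virus and 14.5, 5.79 and 13.0 FPKM with the Nat10 hairpin, with library 2 the lowest of all. Tsr1, a late 40S factor, had 22.4, 27.0 and 25.0 FPKM in the control set, against 42.1, 22.2 and 35.8 FPKM after knockdown, in the same order. Bysl, which binds the maturing 40S subunit, had means of 18.4 and 26.9 FPKM (log2 change 0.48, SE 0.23, adjusted p = 0.450).

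For the 60S factors the median was 0.09, with 6 of 8 positive. Pes1, Bop1 and Wdr12 form the PeBoW complex, which is needed to cut the large subunit RNA. Pes1 was measured at 33.4, 32.7 and 35.1 FPKM (controls) and 41.3, 35.4 and 53.2 FPKM (knockdown). All knockdown libraries lay above the controls, library 2 by a small margin (log2 change 0.33, SE 0.19, adjusted p = 0.503). Bop1 and Wdr12 had log2 changes of 0.32 (SE 0.23) and 0.27 (SE 0.29), with overlapping groups.
Gnl3, the nucleolar GTPase nucleostemin, gave 24.2, 30.8 and 31.2 FPKM with the control virus and 38.4, 28.4 and 27.5 FPKM with the Nat10 hairpin, high only in knockdown library 1. Rrs1, which helps to place the 5S particle, had 14.0, 12.6 and 13.9 FPKM in the control set, against 10.9, 9.85 and 16.6 FPKM after knockdown, high only in knockdown library 3. Nip7, an RNA-binding factor, was measured at 6.27, 9.56 and 9.83 FPKM (controls) and 8.23, 4.68 and 14.0 FPKM (knockdown). It rested on 45 to 114 fragments a library, the fewest of the tested genes of the list. Nop2, an RNA methyltransferase, and Nop16 had log2 changes of 0.07 and 0.06, smaller than their SEs of 0.28 and 0.20.

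The abundant nucleolar proteins were all slightly positive (median 0.14). Npm1, a histone and ribosome chaperone, was the most abundant factor at 239, 248 and 253 FPKM in controls and 264, 240 and 308 FPKM after knockdown. Ncl, nucleolin, followed at 122, 160 and 180 FPKM in controls and 209, 111 and 212 FPKM after knockdown. In both genes knockdown libraries 1 and 3 were above the controls and library 2 was not. Npm1 has processed pseudogenes that can share its reads, so its level is uncertain.
Mybbp1a, which couples transcription and processing, gave 30.6, 42.0 and 40.6 FPKM with the control virus and 50.5, 28.3 and 67.3 FPKM with the Nat10 hairpin. Ddx21, an RNA helicase, spread most widely, from 10.5 FPKM in knockdown library 2 to 48.8 FPKM in knockdown library 3, on both sides of the control values of 18.9 to 26.2 FPKM. The median control level of the 32 genes was 22.3 FPKM, and their median lay at percentile 75.1 of all tested genes. The plot of FPKM by library orders them from Npm1 to Polr1b.

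**Figure D2:**
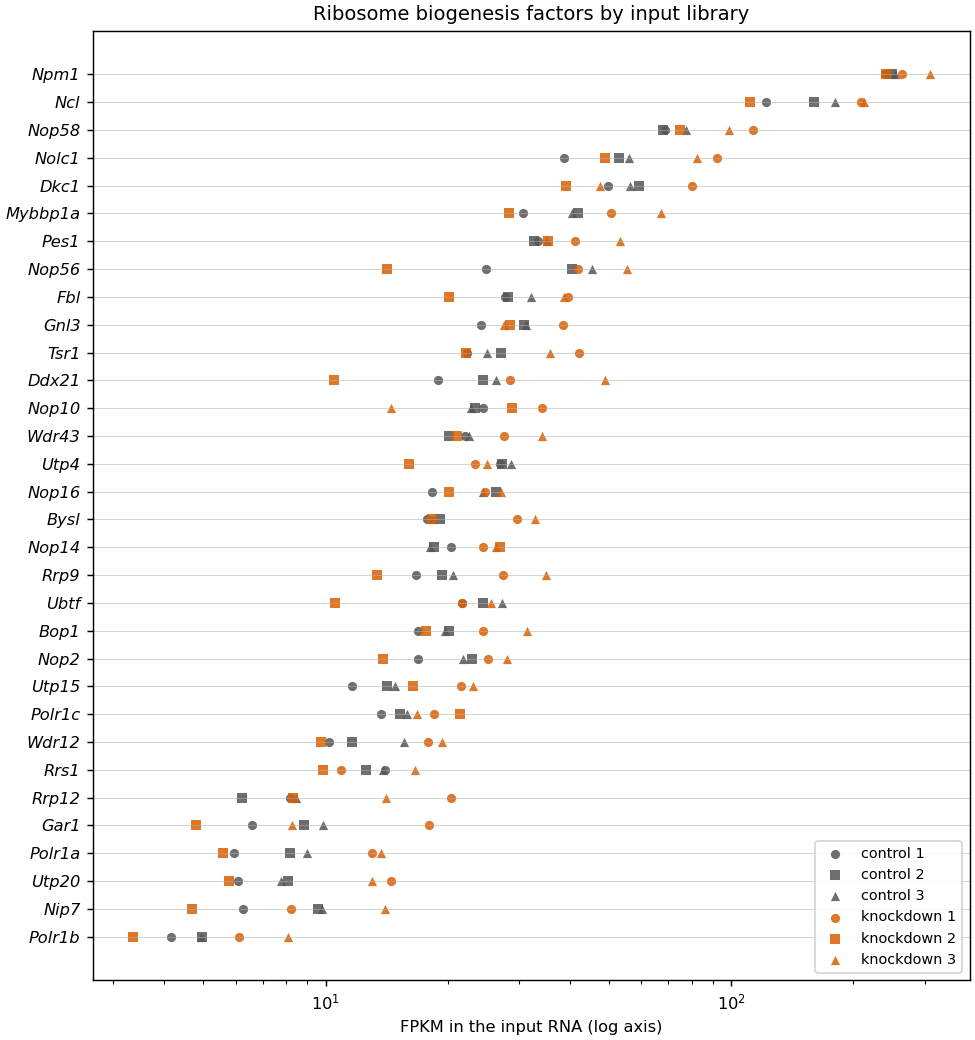
FPKM in the 6 input libraries (log axis) for the 32 tested genes, sorted by mean level. Grey marks are controls, orange marks knockdown libraries, and the shape gives the replicate number. Orange squares (knockdown library 2) sit at the low end of most rows, and the rows run from 3.35 FPKM in Polr1b to 308 FPKM in Npm1.

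The genes whose promoter window holds CACGTG and those whose window does not were both mostly positive. With the motif, 9 of 11 had a positive change (median 0.29). Without it, 15 of 18 did (median 0.19). The difference between these groups was not tested.

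The rest of the pathway, 129 further genes in 5 lists, leaned the same way with a smaller median. Knockdown library 2 was not low at the median of these genes. Of these, 127 were found and 126 tested: 90 changes were positive, and the median was 0.18. By limma 0 were called. At p under 0.05 before adjustment stood 20 on the higher side (15.9%, background 5.53%) and 2 on the lower side (1.59%, background 6.95%). The groups did not overlap for 33 higher genes (26.2%, background 9.63%) and 3 lower genes (2.38%, background 10.9%). The total of 22 was 11, 8 and 7 without control library 1, 2 and 3, 13 without knockdown library 1, 32 without knockdown library 2, 10 with the replicate block, 14 after rescaling to the same total and 8 with control libraries 2 and 3 averaged. The median deviation was 0.21, 0.10 and 0.22 in knockdown libraries 1 to 3. Knockdown library 2 was the lowest of its group in 63 of the 126 (50.0%, background 38.6%), against 87.5% of the members. It lay below every control in 40 of the 126 (31.7%, background 37.7%), against 56.25% of the members. These differences were not tested. The plot of changes by list sets them beside the members and all genes.

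By list, 9 of 12 genes of the RNA polymerase I apparatus were positive (median 0.25), 7 of 9 of snoRNP core and assembly (median 0.23), 30 of 42 of the small subunit processome (median 0.19) and 37 of 47 of 60S assembly (median 0.19). Exosome and trimming genes, which degrade and finish the RNA ends, were positive in 7 of 16 (median -0.04). The small subunit list held 11 higher genes with an unadjusted p under 0.05 (26.2%, background 5.53%) and 2 lower ones (4.76%, background 6.95%). Its total of 13 was 4, 3 and 4 without control library 1, 2 and 3, 4 without knockdown library 1, 4 with the replicate block, 6 after rescaling to the same total and 3 with control libraries 2 and 3 averaged.
The gene of smallest p in each list was higher in all 3 knockdown libraries. Ruvbl2, an ATPase that assembles snoRNPs, had 31.4, 34.6 and 29.9 FPKM in the control set, against 49.3, 52.1 and 48.7 FPKM after knockdown (log2 change 0.63, adjusted p = 0.266 in limma). Nol6 of the processome stood at 9.48, 9.07 and 9.08 FPKM and then at 18.5, 13.2 and 17.8 FPKM (log2 change 0.76, adjusted p = 0.266). Both genes were also high in knockdown library 2, which a choice by smallest p favours. Nop14, the member of smallest p, was high there too.
Eri1, an exonuclease that trims ribosomal RNA, had a log2 change of 0.79 (adjusted p = 0.291), Polr1d, a polymerase I subunit, 0.53 (adjusted p = 0.314), and Urb1, of early 60S particles, 0.57 (adjusted p = 0.316). In the other direction, Mphosph10, of the U3 particle, was measured at 14.9, 14.1 and 18.6 FPKM (controls) and 11.9, 10.7 and 11.5 FPKM (knockdown) (log2 change -0.44, adjusted p = 0.375), with no overlap. Sbds, which acts late in 60S assembly, had a log2 change of -0.46 (adjusted p = 0.405). The lowest p among lower genes of the other lists belonged to Tcof1 (-0.26), Snu13 (-0.25, on 5 to 12 fragments) and Exosc10 (-0.25).

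**Figure D3:**
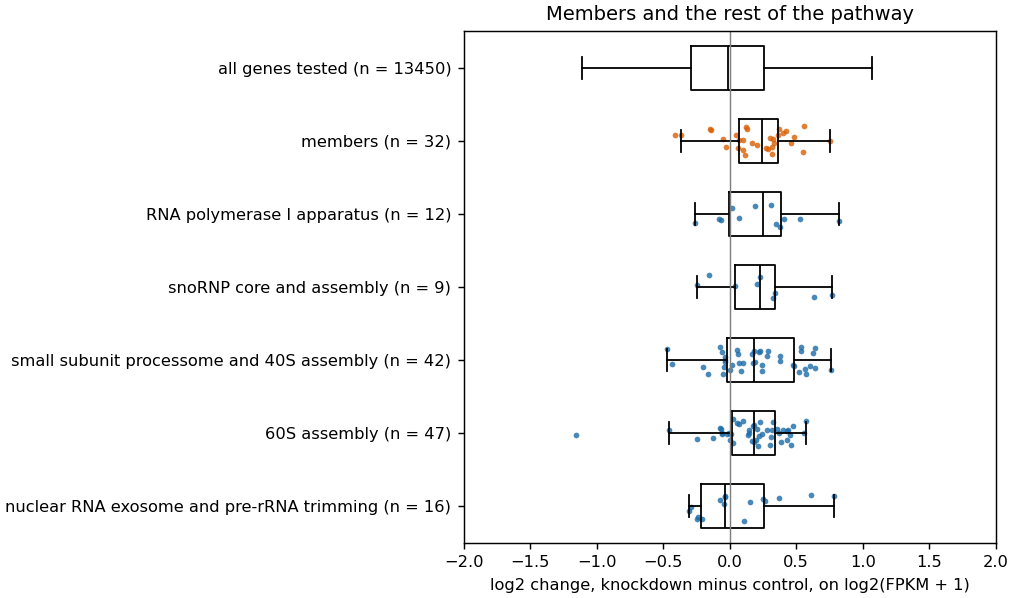
Log2 change (knockdown minus control, on log2(FPKM + 1)) of all 13450 tested genes, the 32 members and 5 further lists of the pathway. Boxes give quartiles and median, whiskers reach 1.5 times the quartile range, and dots are genes. The members' median is 0.24 and that of all genes -0.01.

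In the ac4C lists, the number of factors with a peak did not differ between control and knockdown beyond the spread of the lists. As deposited, 18, 12 and 14 of 33 factors had a peak in control lists 1 to 3, and 11, 12 and 14 in knockdown lists 1 to 3. These are 54.5%, 36.4% and 42.4% of the factors in control lists and 33.3%, 36.4% and 42.4% in knockdown lists. Among all tested genes the shares were 41.2%, 40.2% and 20.4% in control lists and 18.6%, 15.4% and 16% in knockdown lists. Among tested genes of at least 20 FPKM they were 34.7%, 27.6% and 32.5% in control lists and 28.7%, 24.6% and 32.9% in knockdown lists. The difference of the means, 14.7 against 12.3, was -2.33 (exact two-sided permutation test, p = 0.5, with 0.1 the smallest p that 3 lists against 3 can give).
Control lists 1 and 2 hold 26881 and 27673 rows at one single p-value each (0.045 and 0.046), over 50% of either list. Without those rows 14, 6 and 14 factors had a peak in the controls, and the difference became 1.00 (exact permutation p = 1). The background shares of control lists 1 and 2 were then 18.7% and 12.2%, and 29.6% and 21.0% at 20 FPKM or more. The values that follow leave those rows out.

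Peaks recurred on a few factors, though not on all abundant or snoRNP ones. Nop58, Fbl and Ncl had a peak in all 6 lists (background 2.09% of tested genes, and 5.38% of the 3902 tested genes of at least 20 FPKM). They were the 3 of 33 factors found in all control lists (background 4.29%, and 9.74% at 20 FPKM or more), a share near that at 20 FPKM or more. In all knockdown lists there were 6, the same 3 with Dkc1, Nop14 and Tsr1 (background 4.72%, and 11% at 20 FPKM or more). In any list there were 26 (background 47.6% of tested genes at any level, with no share computed at 20 FPKM or more). Nop58, Fbl and Ncl stand at mean levels of 83.4, 31.1 and 166 FPKM. Dkc1 had one in 5 lists (2 control, 3 knockdown). Npm1 had one in 4 lists (2 and 2), as did Nop14 and Tsr1 (1 control and 3 knockdown each).
A peak in 3 lists was found for Gar1 and Gnl3 (2 control, 1 knockdown) and for Nolc1, Polr1a and Polr1b (1 control, 2 knockdown). Rrs1 and Utp20 had peaks in 2 control lists and in 0 knockdown lists. Of the 33 factors, 7 were in more control than knockdown lists and 10 in more knockdown than control lists. No factor was in all 3 lists of one group and 0 of the other. With the rows of the common p-value kept, the balance turned: more factors leaned to the control lists than to the knockdown lists. Nop14 was then in 3 control and 3 knockdown lists, and Nop56, Nop10 and Nhp2 were in 2 control lists.
The 7 factors with no ac4C peak were Nop56, Rrp12, Pes1, Wdr12, Utp4, Nop10 and Nhp2. The median level was 24.5 FPKM for these, 21.8 FPKM for factors in 1 or 2 lists and 30.6 FPKM for those in 3 to 6 lists. The ranges overlapped, but the highest levels were 38.5, 43.2 and 259 FPKM in that order. Npm1, Ncl, Nop58, Nolc1 and Dkc1, the most abundant factors, were all in 3 to 6 lists. The part of level in these counts was not tested.

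Of the 19 factors with ac4C peaks in at least 2 lists, 10 had a base covered by all of their lists, among them Nop58, Fbl, Ncl, Dkc1, Npm1 and Tsr1. In Nop14, Gar1, Gnl3 and Polr1a some of the lists shared a base. In Polr1b, Nip7, Utp20, Wdr43 and Ubtf no base was covered by more than 1 list. Coordinates are those of the deposited lists, and rn6 is the one rat build in the submitters' processing notes. In Nop58 all 6 lists covered 5 stretches on the plus strand between chr9:66514794-66514805 and chr9:66519550-66519639, the longest being chr9:66518707-66518856 (150 nt). In Fbl they covered chr1:85107873-85107924 and chr1:85108024-85108061 on the plus strand. In Ncl they covered chr9:93369449-93369538 on the minus strand, a run of 90 nt. Control and knockdown lists thus marked the same positions in these 3 genes.
Npm1 shared chr10:18080950-18081128 (minus strand, 179 nt) in its 4 lists. Dkc1 shared 3 stretches between chrX:155845126-155845162 and chrX:155845883-155845902 (minus strand) in its 5 lists. Tsr1 shared chr10:61752323-61752353 (plus strand, 31 nt) in its 4 lists. Which exon or untranslated region these stretches fall in was not analysed here.

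In NAT10-bound RNA, 5 factors recurred, 1 of which also had an ac4C peak in every list. In the 3 RIP lists 6, 6 and 7 of 33 factors had a peak (18.2%, 18.2% and 21.2%), against 4.31%, 4.16% and 4.03% of tested genes and 10.9% to 11.4% of tested genes of at least 20 FPKM. Nop56, Ncl, Mybbp1a, Ubtf and Utp20 had a peak in all 3 lists (background 2.68%, and 7.61% of tested genes of at least 20 FPKM). Nop2, Polr1a, Nop14 and Ddx21 each had 1 peak in a single list, which makes 9 factors with a RIP peak in any list (background 5.93%). There was no test here, since the RIP has 1 group and its non-immunoprecipitated library was not analysed here.
The authors' log2 enrichment of the factors' peaks ran from 0.82 to 2.09, with medians of 1.07, 1.21 and 1.06 in the 3 lists, beside 1.09, 1.07 and 1.09 for all peaks. Ubtf had the most peaks, 6, 6 and 4, with 0.92 to 1.51. Ncl had 3, 2 and 4 peaks (0.82 to 1.42), Mybbp1a 4, 3 and 1 (0.87 to 1.83) and Nop56 2, 2 and 1 (0.87 to 1.26). Utp20 had 2, 3 and 1 peaks, with the highest enrichment, 1.48 to 2.09.
Transcript length and level moved with this. The 5 factors bound in all lists had a median recovered length of 4280 nt, against 2003 nt for the other 27 tested factors. Nop56, at 1906 nt, was the shortest of the 5. Over all tested genes the medians were 5550 nt for those bound in all lists and 2011 nt for the rest. Median levels were 37.0 against 22.7 FPKM for the factors and 37.3 against 9.58 FPKM over all tested genes. The part of length or level in the share of bound factors was not tested.

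**Figure D4:**
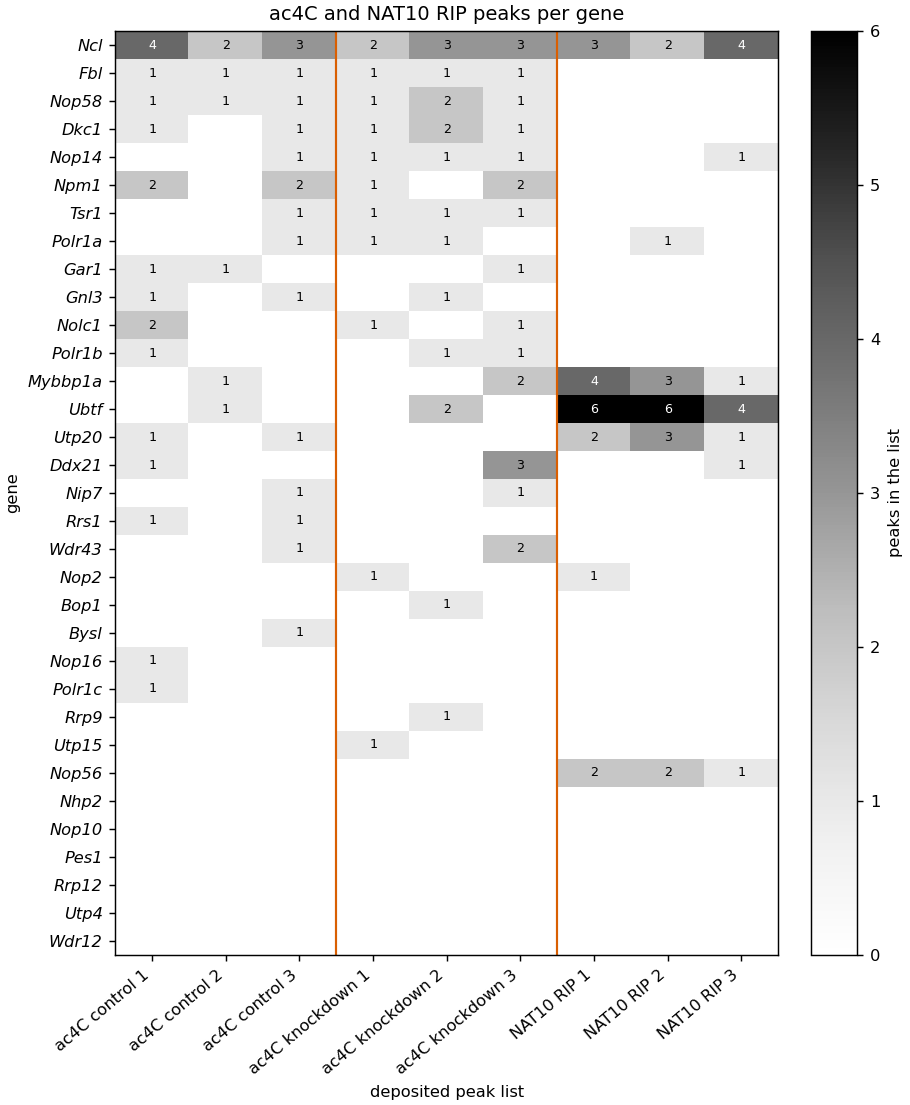
Number of peaks (shade and digit) of the 33 factors in the 6 ac4C and 3 NAT10 RIP lists, without the rows of the common p-value. Ncl is filled in all 9 columns, Fbl and Nop58 in the 6 ac4C columns, and Nop56 in the 3 RIP columns only.

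RIP peaks also recurred in place. All 3 lists covered chr3:122805300-122805324 in Nop56 (plus strand, 25 nt). In Ncl they covered 4 stretches on the minus strand, the longest being chr9:93375083-93375253 (171 nt). In Mybbp1a they covered 4 stretches on the plus strand, from chr10:59005382-59005421 to chr10:59006894-59006904. In Ubtf the shared stretches ran from chr10:90252300-90252424 to chr10:90260901-90261008 on the minus strand. Utp20 had no base in common to all 3 lists, although 2 lists shared chr7:29308598-29308656.

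Overlap of the 2 kinds of peak could be seen in few factors. Of the 107 deposited ac4C peaks of the factors, 6 (5.61%) overlapped a NAT10 RIP peak by at least 1 base, 4 in Ncl and 2 in Ubtf. Without the rows of the common p-value it was 6 of 93 (6.45%). Most of these peaks lay in factors with no RIP peak, where no overlap was possible. The 8 factors with both kinds held 37 of them, 17 in Ncl and 3 in Ubtf, and there the share was 6 of 37 (16.2%). Ncl was the one factor with ac4C peaks in all 6 lists and RIP peaks in all 3, a combination that 38 tested genes of any level showed (0.283%). Ncl stands at 166 FPKM, and the share of the combination at 20 FPKM or more was not computed. Its stretch common to the 6 ac4C lists lay 3′ of its RIP stretches on the transcribed strand. Nop56 and Nop58, which are partners in one particle, differed in these lists: Nop56 had RIP peaks in all 3 lists and no ac4C peak, and Nop58 had ac4C peaks in all 6 lists and no RIP peak. As deposited, Nop56 also had a row of the common p-value in ac4C control lists 1 and 2.

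**Figure D5:**
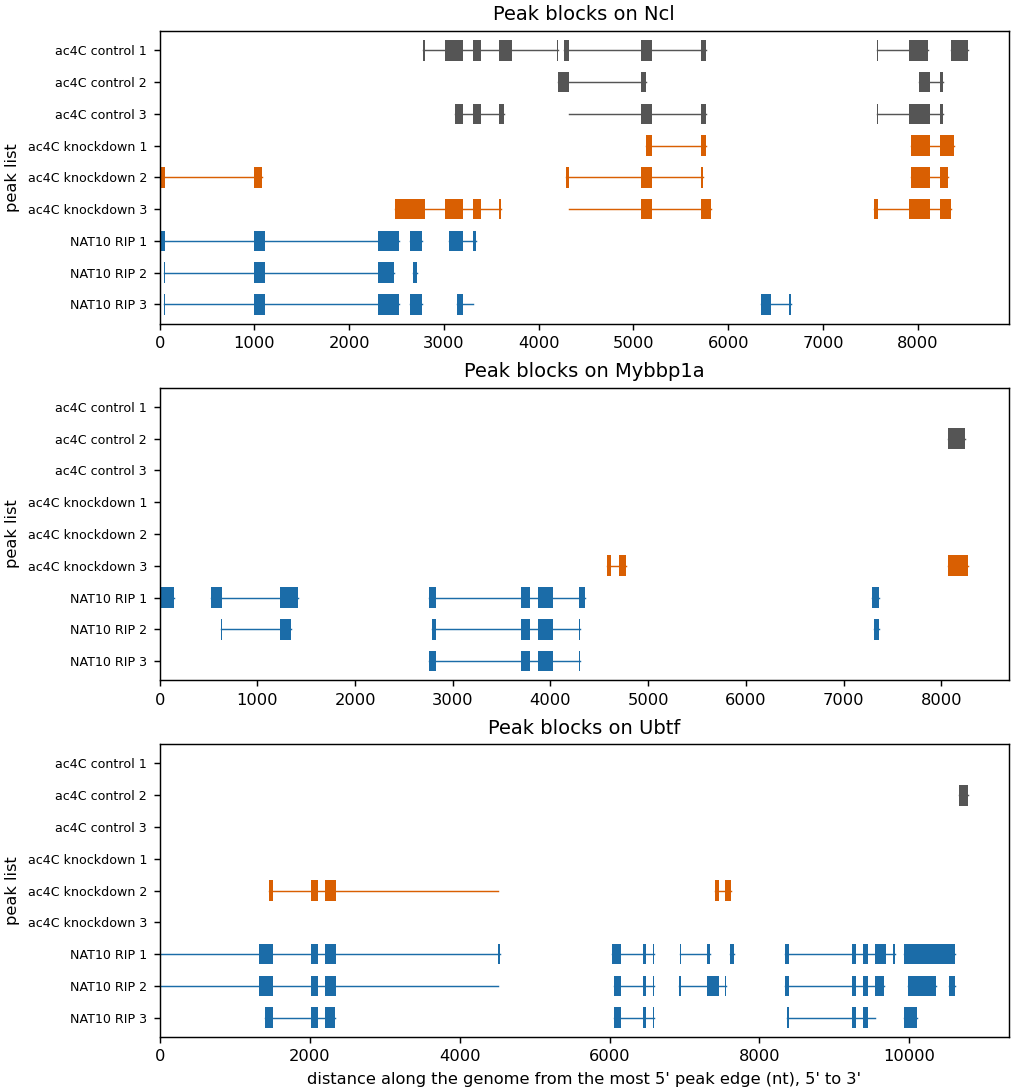
Peak blocks (bars, joined by lines across gaps) of Ncl, Mybbp1a and Ubtf in the 9 lists, as distance in nt along the genome from the most 5′ peak edge of each gene. Grey is ac4C control, orange ac4C knockdown and blue NAT10 RIP. In Ncl the ac4C blocks shared by 6 lists lie to the right of most RIP blocks.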

How the data were processed

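Expression was deposited by the authors as FPKM per Ensembl gene for the 6 input libraries, and 0 other per-sample columns were present. Per the submitters' processing notes, the tools included HOMER 4.10.4, featureCounts 1.6.3, HISAT2 2.1.0, cutadapt 2.5 and DESeq2, with no roles given, and the builds rn6, GRCm38 and GRCh38. The ac4C lists carry a p-value per peak, and the NAT10 RIP lists a p-value, an adjusted p-value and a log2 enrichment per peak, all as deposited by the authors. The strand setting of the counting, the peak callers, the kind of ac4C p and the control of the RIP enrichment were not given in the sources used here. The depth of the immunoprecipitated libraries is unknown.

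The main test was limma 3.58.1 (R 4.3.3) with its trend option, two-sided, on log2(FPKM + 1) of the 13450 genes whose mean reached 1 FPKM, with the 2 groups as the design and Benjamini-Hochberg adjustment at 0.05. This scale understates changes of low genes. The fit was tested on simulated data. Whole fragments were recovered from the FPKM values for 21401 of 21401 genes above 0 (relative tolerance 2e-08) and for 0 of 500 genes with altered decimals; voom on these fragments, an alternative, called 0 genes. Peaks were matched by Ensembl gene ID, and 1 was added to each start. Values of every library are given for members with an unadjusted p under 0.05, with groups that do not overlap, among the 3 highest or 3 lowest by level, with RIP peaks in all 3 lists, or with ac4C peaks in at least 2 lists of a group; of each other list the gene of smallest p in each direction is named. The members and lists were chosen with earlier results of these data known.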

Additional observations from a re-analysis of the deposited data

How the results depend on the processing

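Over 16 alternative fits, 20 of the 32 members kept their sign, 38 of 512 pairs of member and fit turned, and 0 members passed the threshold. Over all genes, library quality weights called 335 genes, and leaving out 1 library called 0 to 1 (1 without control library 3 and 1 without knockdown library 2). The weights also called 2 genes of the other pathway lists, Nol6 and Eri1. Rescaling to total fragments, which moved the median of all genes to 0.12, gave those lists a median of 0.33. That rescaling, leaving out control library 1 and knockdown library 2 together, and leaving out the rows of the common p-value were chosen after seeing the data. Replicate numbers are not stated to pair the libraries. Correlations of same-numbered deviations were -0.21, -0.28 and 0.18, too few values to show whether a pairing existed. With the replicate block, 0 genes were called and the members' median stayed at 0.24.

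With 1 library left out, the log2 change ran across 0 for Nop56 (-0.53 to 0.42), Fbl (-0.062 to 0.41), Dkc1 (-0.34 to 0.16), Nop2 (-0.12 to 0.37), Nop16 (-0.085 to 0.18), Rrs1 (-0.35 to 0.000273), Polr1b (-0.030 to 0.50), Gar1 (-0.35 to 0.51), Nop10 (-0.19 to 0.40), Ddx21 (-0.38 to 0.68), Gnl3 (-0.028 to 0.20) and Nip7 (-0.38 to 0.33). Leaving out control library 1 and knockdown library 2 gave 0.16 for Nop56, 0.088 for Dkc1, 0.025 for Rrs1, -0.042 for Nop10 and 0.14 for Nip7. Total fragments gave 0.0017 for Nop56, 0.10 for Dkc1, 0.0038 for Rrs1 and 0.11 for Nip7. Dkc1 was 0.024 with quantile normalization and 0.20 with quality weights, Nop16 was -0.00844 with quality weights, and Nip7 was 0.067 with control libraries 2 and 3 averaged. The cause was not tested.

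In ac4C control list 2, factors with a peak numbered 6 without the most common p-value and 5 at a p of at most 0.01. The difference in factors with a peak was then 0.667 and 1.67. For the 0.667, each of the 6 lists lost its own most common p-value, not control lists 1 and 2 alone. In knockdown list 3 that value was 0 (105 rows), and its factors with a peak fell from 14 to 13. Factors in all control lists numbered 5 as deposited, 5 to 10 with 1 list left out (9 without list 2 and 10 without list 3) and 3 without the common p-value. RIP peaks with a log2 enrichment of at least 2 remained for 0, 1 and 0 factors. Matching ac4C peaks by name and RIP peaks by gene span was not run. Depth limits Nip7, Gar1 and Nhp2 most.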
